A study of Mus musculus with 265 samples.

Results

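The Ikaros family is made up of 5 zinc finger genes, Ikzf1 (Ikaros), Ikzf2 (Helios), Ikzf3 (Aiolos), Ikzf4 (Eos) and Ikzf5 (Pegasus), and their accessible regions were examined in single cells of an inducible mouse pre-B line. A region was counted for a family gene when the closest protein-coding start site of GENCODE vM21 was that of the gene and lay no more than 50 kb away. By this rule 7 of the 20103 regions belonged to the family, and all 7 were assigned to Ikzf1. Ikzf2, Ikzf3, Ikzf4 and Ikzf5 each had 0 assigned regions in the table analysed here. Of all regions, 16759 lay within 50 kb of a protein-coding start site.

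Ikaros proteins bind DNA through their amino-terminal zinc fingers at sites with the core GGGAA and pair with one another through their carboxy-terminal fingers. Ikaros works largely with chromatin complexes such as NuRD, and in pre-B cells it is known for ending proliferation and for lowering expression of the surrogate light chain. Aiolos is the close relative that acts beside Ikaros in B cells, whereas Helios and Eos are best known from T cells and Pegasus is the most divergent member.

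The cells were B3 pre-B cells that carry an ERt2-Ikaros fusion, in which a tamoxifen-responsive receptor domain holds extra Ikaros out of the nucleus until 4-hydroxytamoxifen (4OHT) is given. Both groups carried this construct. Single-cell ATAC-seq, which marks open chromatin by transposase insertion, was performed on the Fluidigm C1 for 95 cells at 0 h without 4OHT (runs 1 and 2, 48 and 47 cells) and 132 cells at 24 h of 4OHT with a second dose on the way (runs 3 and 4, 60 and 72 cells). The C1 run was taken as the replicate, and nothing in the labels says whether runs came from separate cultures, so p-values measure the spread between runs. Runs held from 92639 to 164357 counts, and the median count per cell was 2898 in run 1 against 1676 to 1839.5 in the other runs. Of 11 B lineage marker genes 10 had an assigned region in this table, against 2 of 6 T cell, 2 of 6 myeloid, 1 of 4 erythroid and 0 of 4 stromal or epithelial markers. The summed level of the B lineage list was 1430 to 1941 CPM (counts per 1000000 counts of the run) in the 4 runs, and the lists of the other blood lineages stayed between 7.01 and 97.9 CPM.

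Ikzf1 lies on the forward strand of chromosome 11, from 11685003 to 11772926 in mm10. Its 7 regions lay 4.13 to 28.5 kb from the start site, and none was within 1 kb of this GENCODE start, whereas 38.5% of the 21938 protein-coding genes had a region within 1 kb of their start. The regions at chr11:11656388-11656528, chr11:11657246-11657370 and chr11:11667686-11667768 lay 28.5, 27.7 and 17.3 kb upstream, within the span of the noncoding gene Gm11999. The regions at chr11:11689057-11689202, chr11:11690103-11690146 and chr11:11691844-11691978 lay 4.13, 5.12 and 6.91 kb downstream of the start, in an intron. The region at chr11:11707784-11707919, 22.8 kb downstream, covered a whole coding exon (11707785 to 11707904). It reached 1 base beyond that exon on the left side and 15 bases on the right.

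Sequences of 5 regions are given because the counts and exon borders described for Ikzf1 turn on them, all read from the forward strand of the mm10 reference. In the first 3, capitals mark GGGAA or its reverse complement TTCCC.
Ikzf1 region 28.5 kb upstream: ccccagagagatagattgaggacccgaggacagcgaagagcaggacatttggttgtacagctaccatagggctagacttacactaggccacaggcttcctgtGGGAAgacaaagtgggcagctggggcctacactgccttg
Ikzf1 region 4.13 kb downstream: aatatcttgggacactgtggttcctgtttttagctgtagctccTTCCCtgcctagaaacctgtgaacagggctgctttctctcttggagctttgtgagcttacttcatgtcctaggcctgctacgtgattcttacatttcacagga
Ikzf1 region 5.12 kb downstream: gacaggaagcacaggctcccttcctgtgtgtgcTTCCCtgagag
In the next 2, capitals mark bases of coding exons, at the region 22.8 kb downstream and at chr11:11769144-11769226 in the last coding exon.
Ikzf1 region 22.8 kb downstream: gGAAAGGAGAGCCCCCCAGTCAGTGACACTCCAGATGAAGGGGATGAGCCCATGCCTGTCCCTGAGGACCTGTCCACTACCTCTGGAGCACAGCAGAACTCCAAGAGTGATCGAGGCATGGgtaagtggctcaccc
Ikzf1 last coding exon region: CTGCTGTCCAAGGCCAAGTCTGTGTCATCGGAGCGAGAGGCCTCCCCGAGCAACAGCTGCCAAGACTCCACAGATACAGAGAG

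GGGAA was present on either strand in 3 of the 7 regions, and 35.6% of all regions held it. The longer form TGGGAA was in 1 of the 7, the region 28.5 kb upstream, against 9.80% of all regions. The ETS core GGAA, which is contained in GGGAA, was in all 7 and in 78.6% of all regions. The E-box CANNTG was in 4 of the 7 against 44.7%, and CACGTG was in 0 of the 7 against 4.72%. Wider regions hold a short motif more often, and regions within 10% of the width of the one 28.5 kb upstream held GGGAA in 37.9% of cases, against 10.5% for the 44 base region 5.12 kb downstream. RefSeq places a start site of Ikzf1 at 11690177, and the region 5.12 kb downstream of the GENCODE start ended 31 bases before it.

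Signal at Ikzf1 was sparse, and each region was seen in few cells. The 7 regions were detected in 5 to 9 of the 227 cells, with a median of 6, against a median of 13 cells for all 20103 regions. In total 37 cells had a count at any of them.

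The region 28.5 kb upstream had 10, 0, 0 and 0 counts in runs 1 to 4. All of this signal came from 6 of 48 cells of run 1 (12.5%, exact 95% interval 4.73% to 25.2%). At 24 h it was seen in 0 of 132 cells, so a share of up to 2.27% is possible, and in run 2 in 0 of 47 cells, so up to 6.38% is possible. Signal was therefore limited to 1 of the 2 runs at 0 h. With 3 counts over both 24 h runs taken as the floor, the pooled 0 h level was 3.44-fold the 24 h level. This takes the 10 counts of run 1 as exact, so it is not a lower bound of the fold. The table keeps regions seen in at least 5 cells, so a region with all its 6 cells in run 1 entered only through the time-point where it is high, which favours such a fold. The test on run sums gave an adjusted p of 0.312 (edgeR quasi-likelihood test with Benjamini-Hochberg adjustment over all regions). Without run 1 this region had no count left.

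The region 27.7 kb upstream had 3, 2, 1 and 1 counts, from 2, 2, 1 and 1 cells. Both runs at 0 h (18.2 and 20.9 CPM after TMM scaling) were above both at 24 h (8.09 and 7.33). The log2 change was -1.23 (SE 1.58, adjusted p 0.818, edgeR). The third upstream region, at 17.3 kb, had 1, 3, 1 and 2 counts, so its runs overlapped.

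In the intron the region 4.13 kb downstream had 5, 0, 3 and 0 counts, so 1 run of each time-point was at 0. The region 5.12 kb downstream, next to the RefSeq start, had 5, 1, 1 and 1 counts, and its scaled levels of 30.3 and 10.4 CPM at 0 h were above the 8.09 and 7.33 at 24 h. Its log2 change was -1.39 (SE 1.55, adjusted p 0.781, edgeR). The region 6.91 kb downstream was seen in the most cells of the 7 (4, 1, 3 and 1) and had 5, 2, 4 and 1 counts, with overlapping runs. The coding exon region 22.8 kb downstream had 0, 4, 1 and 2 counts, so that run 1 was the lowest here and its time-points overlapped.

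The edgeR log2 change from 0 h to 24 h was below 0 at all 7 regions, with a median of -0.60, against 52.0% of all regions and a median of -0.06. None of the 7 was called, and 1 (28.5 kb upstream) had an unadjusted p below 0.05. DESeq2 also called 0 of them. Over all regions 0.0149% were called higher at 0 h and 0.0398% higher at 24 h, and 12.1% had an unadjusted p below 0.05. These were 3 and 8 regions, and with the number of cells of a run in place of depth 3 and 0. In simulated data with the spread of these regions, 0% of log2 changes of 2 were recovered over 20103 regions, so this test had little power for a single region. Both runs at 0 h were above both at 24 h in 2 of the 7, against 25.7% of all regions. The opposite order held in 0 of the 7, against 19.3%. The signs of single regions rested on a few counts, since 5 of the 7 changed sign in at least 1 alternative setting.

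**Figure D1:**
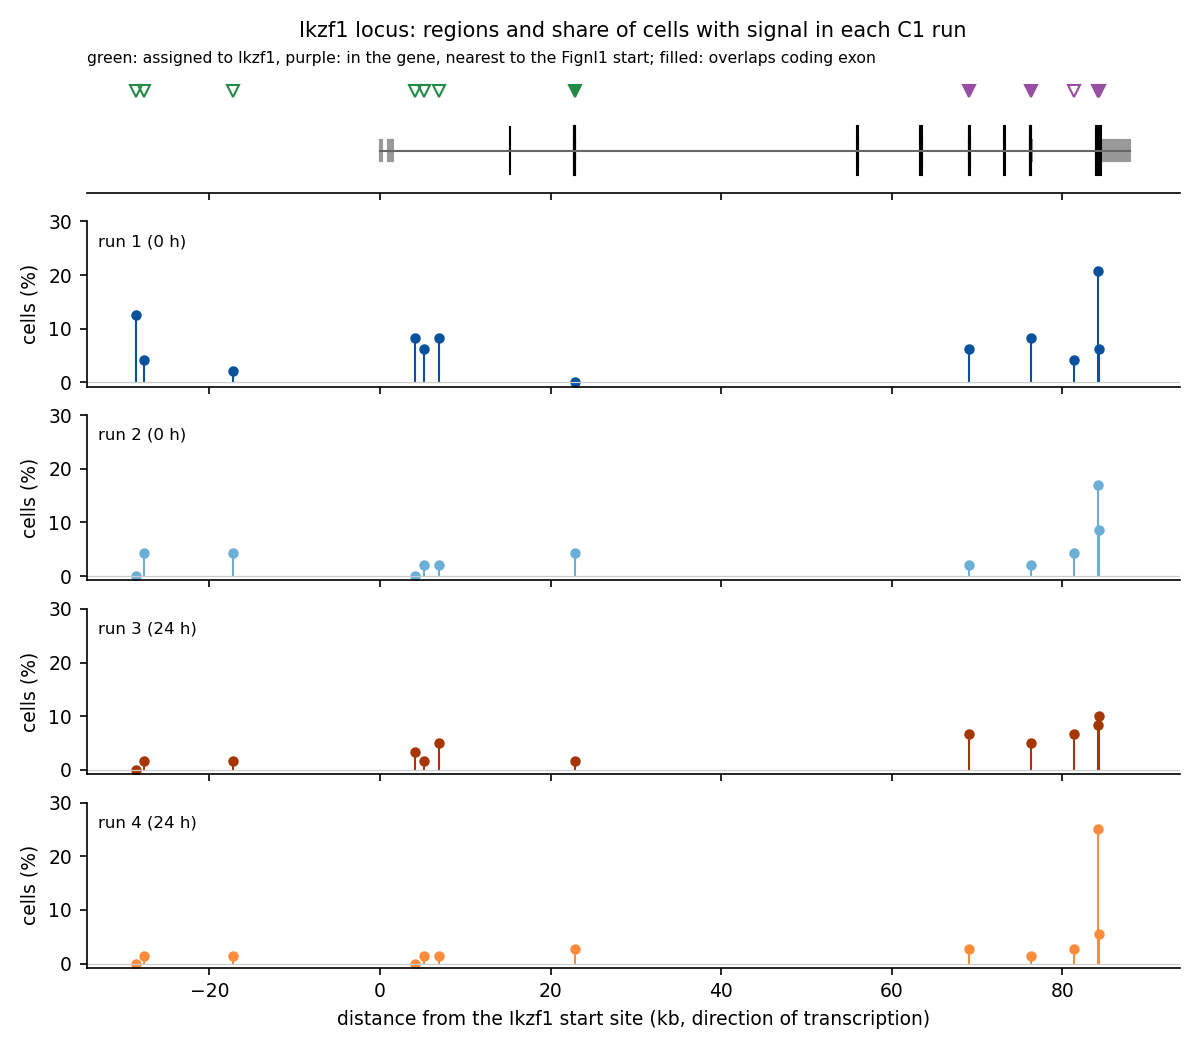
Share of cells with signal (percent, vertical axis) at each of 12 regions of the Ikzf1 locus in C1 runs 1 to 4, by distance from the Ikzf1 start site (kb, horizontal axis). The top panel shows exons (grey), coding exons (black) and the regions (triangles; green assigned to Ikzf1, purple in the gene but nearest to the Fignl1 start, filled where they overlap a coding exon). The tallest point of each run lies in the last coding exon, from 10.0% of cells in run 3 to 25.0% in run 4, and the region 28.5 kb upstream has signal in run 1 only.

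Summed over the 7 regions, Ikzf1 signal was higher in both runs at 0 h than in either run at 24 h, without passing the test. This sum includes the region 28.5 kb upstream (10, 0, 0 and 0 counts), which entered only through the time-point where it is high. Its inclusion favours a higher 0 h sum, and no gene fit was made without it. The 7 regions together had 29, 12, 11 and 7 counts in the 4 runs. Scaled by TMM over genes, these were 206 and 152 CPM at 0 h (mean 179 ± 38.1, SD, n = 2) and 99.7 and 55.3 at 24 h (mean 77.5 ± 31.4, SD, n = 2). Both runs at 0 h were therefore above both at 24 h, an order that 21.9% of the 9901 genes with regions shared. The log2 change was -1.23 (SE 0.60), with an unadjusted p of 0.0412 and an adjusted p of 0.380 over all genes (edgeR quasi-likelihood test), so Ikzf1 was not called. At this threshold 0.192% of genes were called higher at 0 h and 0.162% higher at 24 h, and 12.0% had an unadjusted p below 0.05. Ikzf1 has 59 counts in all, and in simulated data with the spread of these genes 19.5% of log2 changes of 2 were recovered over 9901 genes. The median log2 change over all genes was 0.04. In sums over the cells of a run, fewer cells with an open site and fewer insertions per cell cannot be told apart.

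The genes most like Ikzf1 over the 4 runs were Dio2, a deiodinase of thyroid hormone, and Arid3b, an AT-rich interaction domain gene. The Euclidean distance of centred log2 levels from Ikzf1 was 0.101 for Dio2 and 0.106 for Arid3b, the closest of 4695 genes with at least 40 counts. Dio2 had 255, 177, 118 and 63.2 CPM in runs 1 to 4. Arid3b had 340, 265, 190 and 103. Neither was called, with adjusted p of 0.296 and 0.302 (edgeR).

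**Figure D2:**
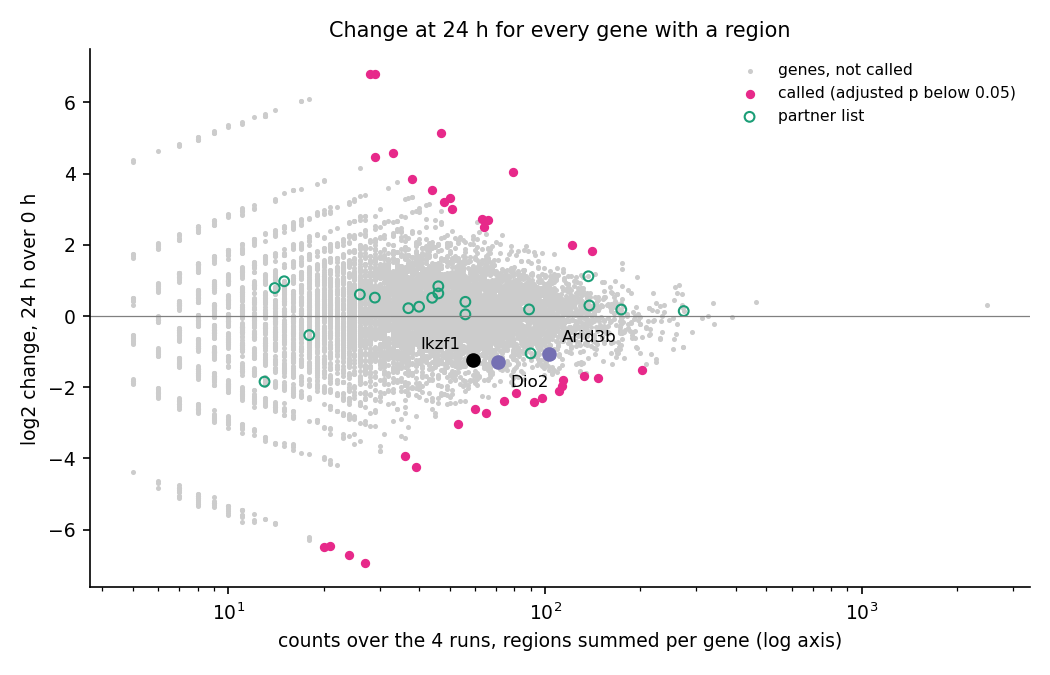
Log2 change from 0 h to 24 h (vertical axis) against the counts over the 4 runs (horizontal log axis) for each of the 9901 genes with a region. Pink points passed an adjusted p of 0.05 in edgeR, and green circles are the 19 partner genes with a region. Ikzf1 (black, log2 change -1.23), Dio2 and Arid3b (purple) were not called.

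The share of cells with a count at any of the 7 regions was highest in run 1, which was also the deepest run per cell. It was 33.3% of 48 cells in run 1 (exact 95% interval 20.4% to 48.4%), 17.0% of 47 in run 2 (7.65% to 30.8%), 11.7% of 60 in run 3 (4.82% to 22.6%) and 8.33% of 72 in run 4 (3.12% to 17.3%). The 0 h mean of 25.2% (SD 11.5, n = 2) was above the 24 h mean of 10.0% (SD 2.36, n = 2), but an exact two-sided permutation test of 2 runs against 2 gave p = 0.333, the smallest this design allows. These shares include the region 28.5 kb upstream, which entered only through 6 cells of run 1. That favours a higher 0 h share, and shares without this region were not compared. The difference of -15.2 percentage points became -7.02 without run 1, the deepest run, and -23.3 without run 2. With every cell thinned to 837 counts and 23 shallower cells left out, the shares were 4.17%, 8.70%, 6.38% and 4.76% in runs 1 to 4, so the runs overlapped and the difference was -0.86 points (exact permutation p = 1.0). These thinned shares stand for 2, 4, 3 and 3 cells, and no order was read from them.

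By position, the difference in counts upstream rested mainly on 1 region in 1 run. The 3 upstream regions together had 14 and 5 counts at 0 h and 2 and 3 at 24 h, which is 85.2 and 54.0 against 16.3 and 21.0 CPM. Their ratio of means was 3.73, and 10 of the 14 counts of run 1 were those of the single region 28.5 kb upstream. Without that region, a value added after the data were seen, the other 2 upstream regions had 4, 5, 2 and 3 counts and a ratio of means of 2.10. The 3 intronic regions had 15, 3, 8 and 2 counts, with overlapping runs and a ratio of means of 1.56. Their mean differed by -22.2 CPM from 0 h to 24 h, against -20.5 CPM for the other 2 upstream regions. After thinning, cells with signal upstream were 4.17% and 4.35% at 0 h against 0% and 1.59% at 24 h, from 2, 2, 0 and 1 cells. In the intronic regions they were 2.08% and 2.17% at 0 h against 4.26% and 3.17% at 24 h, from 1, 1, 2 and 2 cells. No order was read from so few cells.

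Coding exons of Ikzf1 formed a separate set, most of which lay nearer to the start of the neighbour Fignl1. Of 9 regions inside the gene span, 5 overlapped coding exons, and 4 of these 5 lay closer to the start of Fignl1, 39.7 to 54.9 kb away, so that they were not counted for Ikzf1. Coding exons make up 1613 bases, or 1.83%, of the Ikzf1 span. Over all genes, 447 of 5986 gene-body regions beyond 1 kb of a start overlapped a coding exon, or 7.47%. Besides the region 22.8 kb downstream, exon regions of Ikzf1 had an edge near an exon border in 2 cases. The region at chr11:11753995-11754124 began 12 bases before the exon that starts at 11754007, and the one at chr11:11761208-11761343 began 11 bases before the exon that starts at 11761219. The ERt2-Ikaros construct holds Ikaros coding sequence as well, so reads from it and from the coding exons of the gene itself cannot be told apart here.

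Of the 12 regions at the locus, the one printed above in the last coding exon was seen in the most cells. It was detected in 10, 8, 5 and 18 cells of runs 1 to 4, or 20.8%, 17.0%, 8.33% and 25.0%, and had 12, 10, 7 and 20 counts. The time-points overlapped, with 18.9% of cells at 0 h (exact 95% interval 11.6% to 28.3%) and 17.4% at 24 h (11.4% to 25.0%) when runs are pooled. Its log2 change was 0.24 (SE 0.65, adjusted p 0.926, edgeR). The 8 base region 84.3 kb downstream in the same exon had 3, 7, 6 and 4 counts.

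The other exon regions also overlapped between time-points. The region 69.1 kb downstream had 5, 2, 5 and 4 counts and the one 76.3 kb downstream had 8, 2, 6 and 1. The intronic region 81.3 kb downstream, the single region nearer to Fignl1 that lay outside an exon, had 2, 4, 6 and 3.

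Summed over the 5 coding exon regions the runs had 28, 25, 25 and 31 counts. Scaled to the run's total, these were 170 and 270 CPM at 0 h (mean 220 ± 70.4, SD, n = 2) and 204 and 217 at 24 h (mean 211 ± 9.50, SD, n = 2), so both 24 h runs lay between the 0 h runs (exact permutation p = 1.0). The share of cells was 33.3%, 27.7%, 23.3% and 30.6% in runs 1 to 4. Thinned to one depth it was 12.5%, 13.0%, 14.9% and 12.7%. Without the coding exon region among the 7, the other 6 had 29, 8, 10 and 5 counts, and the share of cells differed by -15.3 points, close to the value with it. Coding exons held 47.5% and 67.6% of all counts of the 12 regions at 0 h and 61.0% and 79.5% at 24 h, which overlap (exact permutation p = 0.667).

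**Figure D3:**
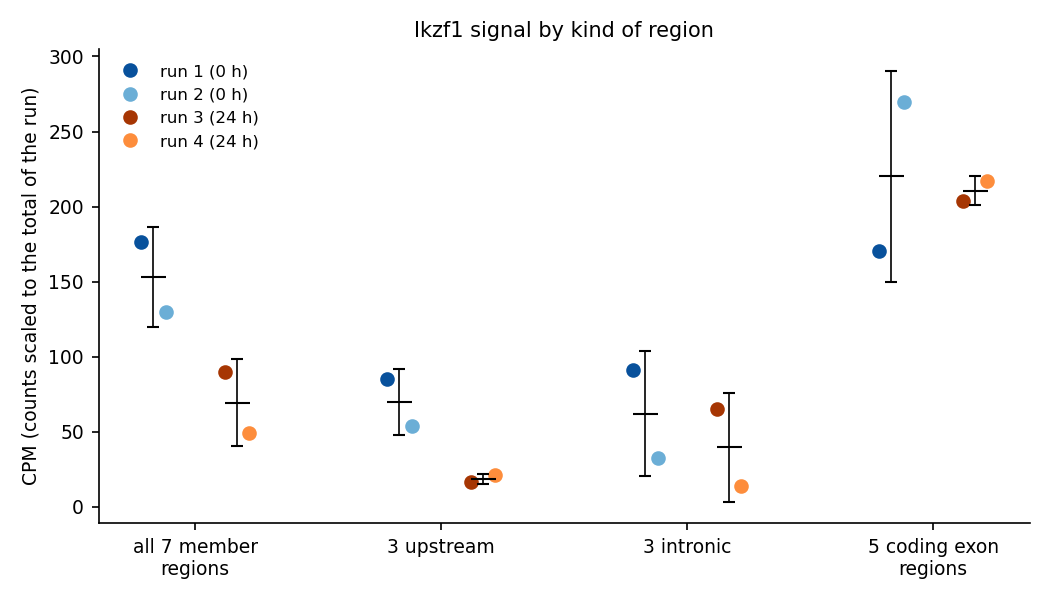
Signal of each run in CPM (vertical axis, counts scaled to the total of the run) for 4 sets of Ikzf1 regions, with 1 point per C1 run and bars for the mean and SD of the 2 runs of a time-point. The 0 h points (blue) sit above the 24 h points (orange) for all 7 regions and for the 3 upstream regions, whereas they overlap for the 3 intronic and the 5 coding exon regions.

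**Figure D4:**
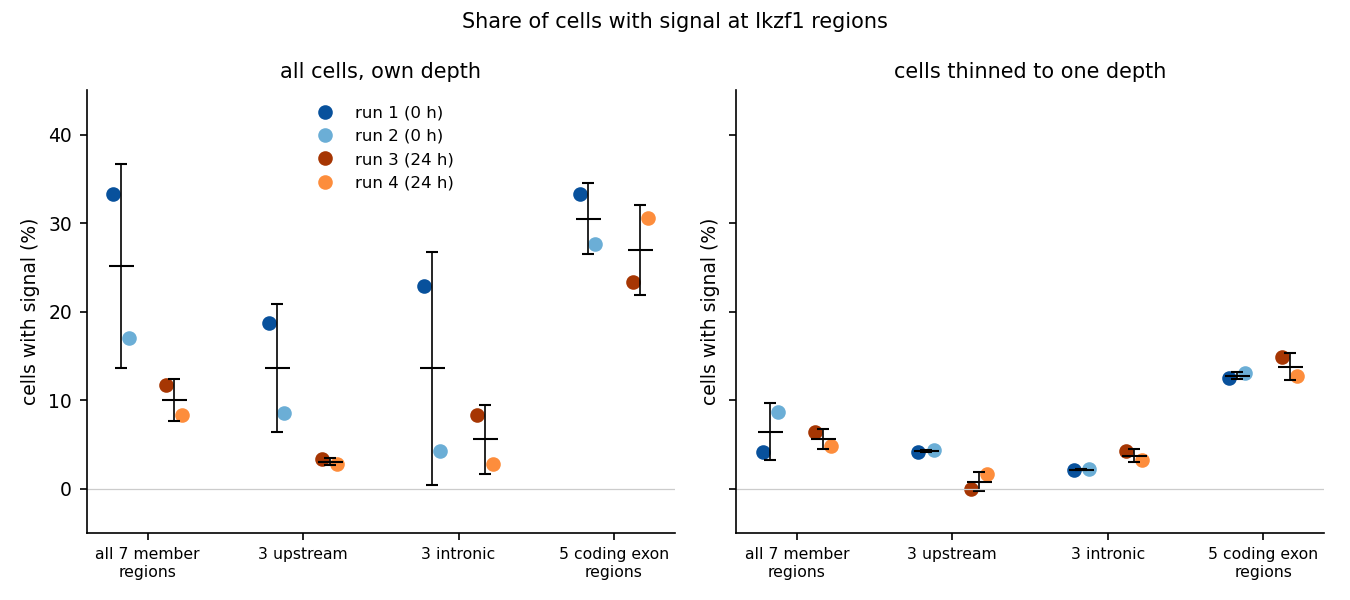
Share of cells with a count (percent, vertical axis) in the same 4 sets, at each cell's own depth (left) and with cells thinned to 837 counts (right), with 1 point per C1 run and bars for the mean and SD of the 2 runs. The gap between time-points for all 7 regions on the left, -15.2 points, is -0.86 points on the right, while coding exon shares stay within 12.5% to 14.9% after thinning.

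The other family genes could be described only by the regions nearest to them, all assigned to neighbours. Ikzf5 (chromosome 7, 131388652 to 131410521) had the closest one, chr7:131410552-131410672, centred 91 bases from its start and assigned to Acadsb, which encodes an acyl-CoA dehydrogenase. It had 8, 2, 13 and 10 counts, from 7, 1, 10 and 7 cells. Scaled by TMM the levels were 48.5, 20.9, 105 and 73.3 CPM, both 24 h runs being above both 0 h runs, as they were in 19.3% of all regions. The log2 change was 1.25 (SE 0.81, adjusted p 0.569, edgeR).

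Ikzf3 (chromosome 11, 98464902 to 98546031) had its nearest region 5.11 kb from its start, at chr11:98551057-98551216, assigned to Zpbp2. Its counts were 6, 2, 10 and 6, or 36.4, 20.9, 80.9 and 44.0 CPM scaled by TMM, both 24 h runs again being above both 0 h runs, with a log2 change of 1.03 (SE 0.93, adjusted p 0.713, edgeR). Ikzf4 (chromosome 10, 128630843 to 128645991) was 19.2 kb from its nearest region, which was assigned to the ribosomal protein gene Rps26 and had 15, 7, 5 and 11 counts. These runs overlapped, with a log2 change of -0.44 (SE 0.73, adjusted p 0.869, edgeR). Within 50 kb of their starts Ikzf3, Ikzf4 and Ikzf5 had 2, 3 and 3 regions and Ikzf2 (chromosome 1, 69531214 to 69687245) had 0. The nearest region to Ikzf2 was 1311 kb away and had 2, 6, 1 and 0 counts, with a log2 change of -2.88 (SE 1.66, adjusted p 0.505, edgeR). None of these family starts can be called closed from this. The table holds regions detected in at least 5 cells. The study's methods describe a larger set of regions than this table holds under the same kind of filter, and regions outside the table were not analysed here, so whether some lie near Ikzf2, Ikzf3, Ikzf4 or Ikzf5 is not known.

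Genes whose products work with Ikaros were read from a list of 21, made up of NuRD subunits, corepressors and the cereblon ligase through which Ikaros and Aiolos are degraded by thalidomide analogues. Regions were assigned to 19 of them. edgeR called 0 in either direction, against 0.192% of all genes higher at 0 h and 0.162% higher at 24 h, and DESeq2 called 0 of all genes. An unadjusted edgeR p below 0.05 was found for 2 of the 19, a share near the 12.0% of all genes. The median log2 change of the 19 was 0.30, against 0.04 for all genes. It was 0.40 for the 11 NuRD genes, 0.14 for the 3 corepressor genes and 0.30 for the 5 ligase genes.

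Among partner genes with at least 40 counts, the NuRD subunits Gatad2b and Mta3 differed most. Gatad2b, which links the methyl-CpG binding and remodelling parts of the complex, had 191, 177, 362 and 442 CPM in runs 1 to 4. Both 24 h runs were above both 0 h runs, an order that 21.5% of genes had, with a log2 change of 1.12 (SE 0.42, adjusted p 0.213, edgeR). Mta3, a metastasis-associated subunit found in B cells, had 184, 404, 190 and 86.9 CPM, so its runs overlapped. Its log2 change was -1.05 (SE 0.49, adjusted p 0.352, edgeR).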

How the data were processed

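The authors mapped scATAC-seq libraries to mm10 with Bowtie2, removed duplicates with Picard, called HOMER peaks on bulk replicates and deposited counts of each cell in those regions, unnormalized, for 20103 regions and 227 cells. No value is above 2, and the handling of larger values is stated in neither labels nor methods. Bulk samples were not analysed here.

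Cells were grouped by the labels and summed per C1 run. Run sums were tested with edgeR 4.0.16 (R 4.3.3; TMM, quasi-likelihood test, Benjamini-Hochberg adjustment over all regions or genes, threshold 0.05), with DESeq2 1.42.0 as alternative. Depth was 92639 to 164357 counts per run, and intervals and limits of shares, at 95% confidence, cover counting error only. Gene sums used regions within 50 kb of the closest protein-coding start (GENCODE vM21). Shares of cells were compared by exact permutation in SciPy 1.17.1. The scripts were tested on simulated data. No doublet caller was run, since the authors inspected each capture site.

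The members and lists were chosen with earlier results of these data known. Named were all family genes and regions, the 2 genes most like Ikzf1, and the 2 partner genes with at least 40 counts and the largest change. Alternatives were other scalings, DESeq2, detection only, thinned cells, filters, transcript starts and each run left out.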

Additional observations from a re-analysis of the deposited data

How the results depend on the processing

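The Ikzf1 log2 change stayed below 0 and not called in 14 of 14 alternatives, from -1.70 to -0.69 (lowest adjusted p 0.114, highest 0.953). Fits with each run left out gave -1.70 to -0.87, assuming that a lone run varies like the other time-point. Scaled by cell number, the median of all genes shifted by -0.37, and Ikzf1 lay -1.29 from it against -1.27 in the reported fit. Fitted among regions beyond 1 kb of a start, the same counts gave -0.83 (adjusted p 0.626), and thinned cells gave -0.69 (adjusted p 0.886). Regions within 1 kb of the GENCODE start gave no value for Ikzf1. The difference in share of cells was -0.86 points when thinned, -15.3 points outside coding exons (chosen after seeing the data), and -23.3 to -7.02 with each run left out.

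No member region was called in any alternative, and none was detected in at least 10% of cells. Over 75 refits 8 changed sign: 5.12 and 6.91 kb downstream became 0.71 and 0.71 when thinned, and 22.8 kb downstream became 0.57 when counts were reduced to detection. With each run left out, 17.3 kb upstream ranged from -1.35 to 0.83, 4.13 kb downstream from -4.30 to 3.60, 6.91 kb from -1.72 to 0.28 and 22.8 kb from -1.75 to 3.81. The region 28.5 kb upstream had no value without run 1, nor 4.13 kb downstream when thinned, because no count was left.

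Counts of calls moved widely, and the cause was not tested. Regions called, 11 as reported, were 33 with run totals (12 higher at 0 h, 21 at 24 h), 3 scaled by cell number (3 and 0), 18 when limited to at least 10% of cells (10 and 8), 0 with DESeq2 size factors, 0 with DESeq2's test, 0 with detection only and 0 with thinned cells (969 to 2490 had an unadjusted p below 0.05 in the last 4). Leaving out each run gave 1 to 797, with 797 without run 3, 6 without run 1 and 1 without run 2. Genes called, 35 as reported, were 60 with DESeq2 size factors, 2 with thinned cells, 2 with transcript starts, 0 scaled by cell number, 0 with DESeq2's test and 0 with at least 40 counts (555 to 837 unadjusted in the last 3). Leaving out each run gave 0 to 529, with 529 without run 3, 4 without run 1, 0 without run 2 (590 unadjusted) and 8 without run 4. The labels number the runs 1 to 4, but sample titles mark a second run within each time-point, and the matrix headers number the runs 1 and 2 there. With that number as a replicate block, chosen after seeing the data, 11 regions and 12 genes were called, and Ikzf1 changed by -1.21 (adjusted p 0.556). Differences between the first and second run had a correlation of -0.02 between time-points over regions and -0.02 over genes. Counts this sparse can hide a shared deviation, so whether same-numbered runs share a culture or batch is not known. Sparse counts limit every region here, and an exact p cannot go below 0.333.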
